A study of Mus musculus with 4 samples.

Results

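Lysosomes are acidic organelles in which hydrolases break down glycans, lipids and proteins. Their acidity comes from the V-ATPase, a proton pump made of a cytosolic V1 sector that hydrolyses ATP and a membrane V0 sector that carries protons, and osteoclasts use the same pump at the cell surface to dissolve bone mineral. The genes described here are 45 genes of this system, chosen by name from the 28443 genes of the count table: 8 V1 subunits, 5 V0 subunits and 2 accessory proteins of the V-ATPase, 14 glycan hydrolases, 10 lipid hydrolases and lipid transfer proteins, 1 peptidase and 5 lysosomal membrane proteins. All 45 were in the table and passed the filter on low counts that left 13436 genes for testing.

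The libraries were made from RNA of BMDMs, macrophages grown from the bone marrow of mice aged 8 weeks and cultured for 1 day with RANKL at 50 ng/ml, the cytokine that starts osteoclast differentiation. There were 2 MYC-WT libraries (strain label LysM cre, genotype WT) and 2 MYC-deficient libraries (strain label MYC f/fLysM cre, genotype MYC cKO). Both genotypes carry LysM Cre, a recombinase made in myeloid cells, and only the MYC-deficient cells carry the floxed Myc alleles. The labels call the replicates biological, but the sources used here do not say whether each came from its own mouse. The p-values therefore set a difference between genotypes against the spread between these libraries, which may not be that between mice. No library without RANKL was analysed here. Total counts per library ranged from 27544806 to 35794698.

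Myc, the deleted gene, was at 230 and 250 CPM (a gene's counts relative to the total counts of its library) in MYC-WT, against 17.7 and 24.2 CPM in MYC-deficient cells. Each library went with its label (log2 fold change -3.49, standard error 0.20, adjusted p = 0.00711 by edgeR's quasi-likelihood test). Over all genes tested, 6.06% were called higher and 9.91% lower by the rule given below. At an unadjusted p under 0.05 by that test, the shares were 16.0% and 20.4%. Of 8 macrophage markers, 4 were called higher in MYC-deficient cells, among them Itgam and Cd68. The 8 summed to 3836 and 3437 CPM in MYC-WT against 5614 and 5399 CPM in MYC-deficient libraries. Of 7 tested osteoclast markers, Itgb3 was called higher and Nfatc1 and Ocstamp lower. Itgb3 was low in all libraries, at 3.22 and 2.02 against 8.02 and 6.28 CPM. At an unadjusted p under 0.05 by the quasi-likelihood test, 4 of the 7 were lower and 2 higher. Acp5 and Ctsk were not called (log2 fold change -1.40 and -1.51, adjusted p = 0.071 and 0.104). For both, the MYC-deficient libraries lay below both MYC-WT libraries. The sum of the list was 1483 and 2131 against 1318 and 1325 CPM. In it Mmp9, not called, lay the other way, at 538 and 541.5 against 876 and 615.5 CPM. Calcr, the calcitonin receptor of mature osteoclasts, had no count in any library. Monocyte markers summed to 44.5 and 35.4 CPM in MYC-WT against 200 and 136 CPM in MYC-deficient libraries (1 of 7 higher, Ccr2). Ccr2 alone was at 17.0 and 11.7 against 147 and 106 CPM. Vcan, not called, had a log2 fold change of -0.56. Neutrophil markers summed to 110 and 49.3 against 296 and 108 CPM (0 of 9 called, 4 higher at an unadjusted p under 0.05). Dendritic cell markers summed to 27.1 and 67.5 against 129 and 297 CPM (2 of 7 higher, Cd209a and Ccl22). Most of that sum was Itgax, not called, at 24.2 and 65.5 against 121 and 290 CPM (adjusted p = 0.0624 by the quasi-likelihood test). Cd209a and Ccl22 reached at most 0.782 and 3.59 CPM in any library. Dcn, the only stromal cell marker that passed the filter, was lower. The stromal sum was 2.11 and 3.40 CPM in MYC-WT against 5.95 and 0.327 CPM in MYC-deficient libraries. Lymphocyte and erythroid markers summed to at most 1.79 CPM and 0.196 CPM in any library, with Cd3e, Cd3d, Hba-a1 and Hbb-bt at 0. Of the called markers named here, only Ccr2 kept its call without MYC-WT replicate 2 (adjusted p of the others from 0.0656 for Itgam to 0.223 for Cd68), and Cd68, Cd209a, Ccl22 and Dcn also lost theirs without MYC-WT replicate 1 (adjusted p from 0.0573 for Cd209a to 0.151 for Cd68). The part that these markers, which move with genotype, play in the values below was not tested. In bulk RNA, fewer cells of a type and less RNA per cell cannot be told apart.

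Of the 45 genes, those that passed the test were all higher in MYC-deficient cells. Calls required more than a 1.5-fold difference with an adjusted p below 0.05, and by this rule 11 of the 45 genes rose, 0 fell and 34 did not pass. Over all 13436 genes tested, 6.06% were called higher and 9.91% lower. At an unadjusted p under 0.05, 30 of the 45 were higher and 0 lower by this test, against 16.0% and 20.4% of all genes. With the replicate number as a block 1 was lower at that p, Atp6v1b2, and under each setting tried 0 were called lower. The 11 genes were Atp6v0a1 of the proton pump, Hexa, Man2b1, Sgsh and Naglu of glycan breakdown, Galc, Lipa, Npc1 and Gm2a of lipid breakdown and transfer, and Lamp2 and Cd68 of the lysosomal membrane. The median log2 fold change of the 45 genes was 0.44 (range -0.27 to 1.18) against -0.01 over all genes tested, and 0.02 over the 5526 tested genes whose mean level lay within the range of the 45. In that level range, 7.13% of genes were called higher.

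Both MYC-deficient libraries lay above both MYC-WT libraries for 34 of the 45 genes, below them for 1 (Atp6v1b2), and the genotypes overlapped for 10. Over all genes tested, 27.5% lay above and 35.9% below in this way. Log2 fold changes were above 0 for 41 of the 45 and for 49.0% of all genes tested. Together the 45 genes took 20010 and 18600 CPM in MYC-WT against 27640 and 27160 CPM in MYC-deficient libraries, a ratio of means of 1.42. Psap alone made up a large part of these sums, and without it they were 14940 and 14410 against 19980 and 20410 CPM, a ratio of 1.38.

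**Figure D1:**
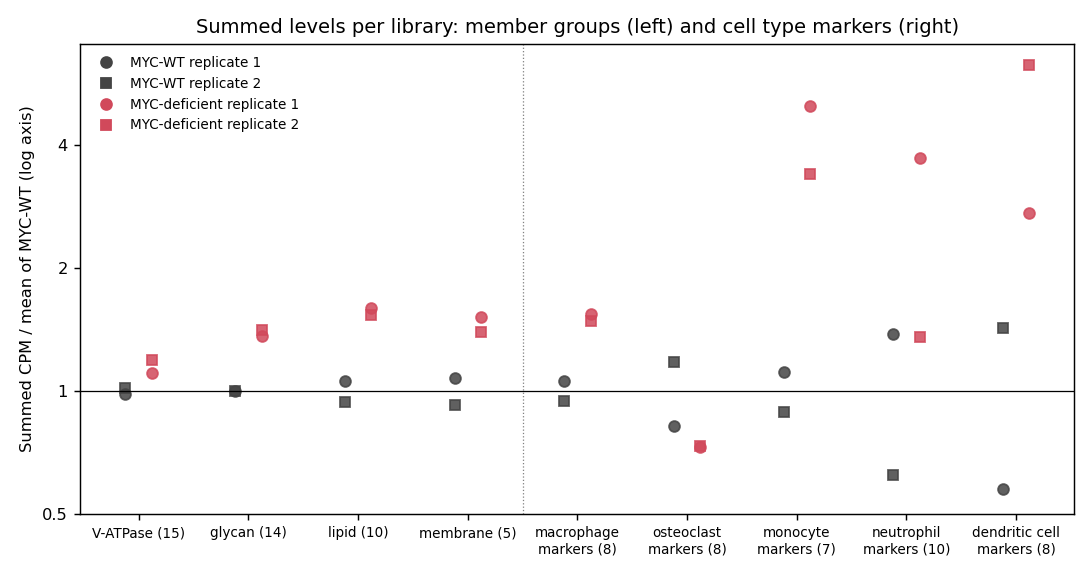
Summed level of the V-ATPase genes (15), glycan hydrolases (14), lipid hydrolases and lipid transfer proteins (10) and lysosomal membrane proteins (5). Sums of macrophage, osteoclast, monocyte, neutrophil and dendritic cell markers are beside them. In MYC-deficient libraries most of the monocyte sum was Ccr2, and in each library most of the dendritic cell sum was Itgax. Each sum of CPM is divided by its mean in MYC-WT (log axis), with 1 point for each of the 4 libraries. Before this division the lipid genes ran from 8178 to 9199 CPM in MYC-WT and from 13320 to 13900 CPM in MYC-deficient libraries. The V-ATPase genes ran from 4528 to 4662 and from 5094 to 5482 CPM.

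The count of calls among the 45 genes was also taken under other settings. There were 11 with RLE scaling (6.48% of all genes called higher) and with total counts alone (5.55%), and 12 with no filter (5.76%), the authors' filtered genes (6.90%), DESeq2 (8.04%), edgeR's likelihood ratio test (8.28%), limma-trend (7.78%) and the replicate block (10.4%). With no fold threshold 17 of the 45 genes rose, against 7.80% of all genes, and with a fold over 2 there were 2, Atp6v0a1 and Lipa, against 2.60%. Without MYC-deficient replicate 1 there were 13 (7.38%) and without MYC-deficient replicate 2 there were 11 (5.98%), 9 of them among the 11. Leaving out 1 of the MYC-WT libraries removed most calls, while the median log2 fold change of the 45 genes stayed at 0.46 without replicate 1 and 0.43 without replicate 2. Without MYC-WT replicate 2, 0 of the 45 genes were called (adjusted p from 0.0656 to 0.223 for the 11, at log2 fold changes from 0.59 to 1.06), 21 had an unadjusted p under 0.05, and 0.460% of all genes were called higher. Without MYC-WT replicate 1 only Atp6v0a1 and Galc passed, at a background of 2.12%. When the threshold of 1.5-fold was put inside the test (glmTreat in edgeR), 0 of the 45 were called (smallest adjusted p = 0.053, 6 at an unadjusted p under 0.05) and 0.789% of all genes were called higher.

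**Figure D2:**
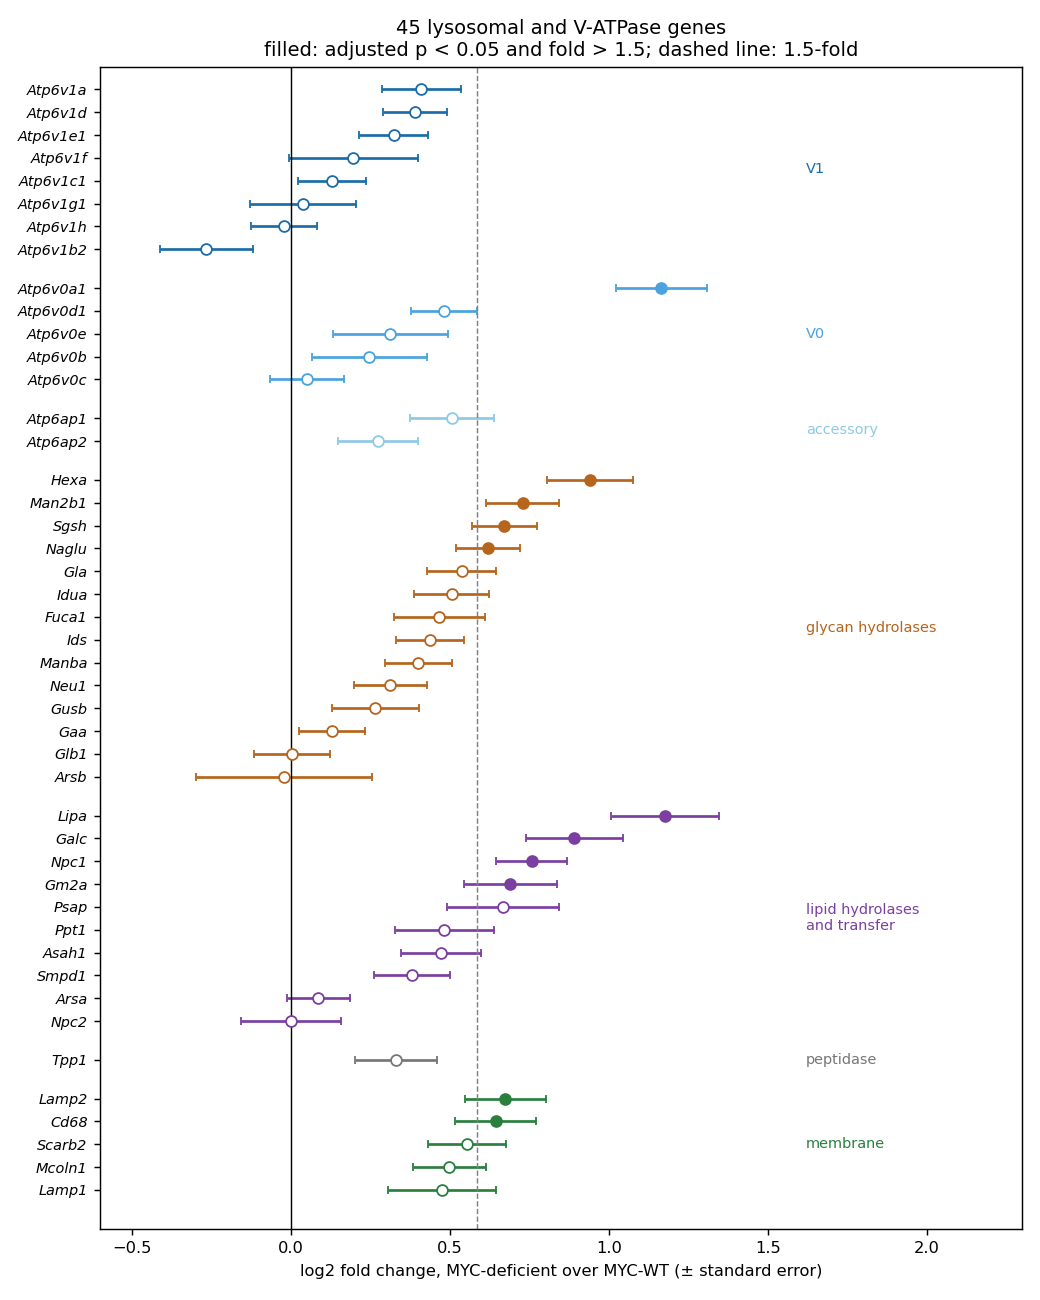
Fitted log2 fold change, MYC-deficient over MYC-WT, of each of the 45 genes, ordered by role, with bars of 1 standard error (n = 2 libraries per genotype) and called genes marked. Values ran from -0.27 for Atp6v1b2 to 1.18 for Lipa, and 41 of the 45 were above 0.

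Of the 15 V-ATPase genes, 1 rose and 14 did not pass, a share near the 6.06% called higher over all genes tested. Both MYC-deficient libraries lay above both MYC-WT libraries for 8 of the 15 and below them for 1. Over all genes tested these shares were 27.5% and 35.9%. Their median log2 fold change was 0.27, against 0.49 for the 30 other lysosomal genes, of which 10 rose. The difference between these groups was not tested. The gene that rose was Atp6v0a1, which encodes a1, an isoform of the a subunit of the V0 sector through which protons pass. It was at 92.3 and 75.65 CPM in MYC-WT, against 171 and 197.5 CPM in MYC-deficient cells. The genotypes did not overlap (log2 fold change 1.16, standard error 0.14, adjusted p = 0.0113 by edgeR's quasi-likelihood test). It lost its call without MYC-WT replicate 2 (adjusted p = 0.0656) and kept it without MYC-WT replicate 1 (adjusted p = 0.0327).

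Atp6v0d1, which encodes the d1 subunit that joins the V0 sector to the central stalk, was at 141 and 135 CPM in MYC-WT against 182 and 195 CPM in MYC-deficient libraries. It passed on p but lay under the fold threshold (log2 fold change 0.48, standard error 0.10, adjusted p = 0.0349). The other V0 genes, Atp6v0b and Atp6v0c of the proton-carrying ring and Atp6v0e, overlapped between genotypes and had log2 fold changes of 0.25, 0.05 and 0.31. Atp6v0c has a processed pseudogene, Atp6v0c-ps2, that matches it at 99.78% over 465 bases, and its counts could be shared with it (mean count 42 for the pseudogene and 13690 for Atp6v0c).

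Of the 8 V1 genes 0 were called, by edgeR's quasi-likelihood test or by any other tool run, and at an unadjusted p under 0.05 by the quasi-likelihood test 3 were higher and 0 lower (16.0% and 20.4% over all genes). Their median log2 fold change was 0.16. Atp6v1d, the D subunit of the rotating stalk, came closest, at 108 and 112 CPM in MYC-WT against 139 and 144 CPM in MYC-deficient libraries (log2 fold change 0.39, standard error 0.10, adjusted p = 0.0509 by edgeR's quasi-likelihood test). Atp6v1b2, the B2 isoform of a subunit of the ATP-hydrolysing ring, was at 799.5 and 912 CPM in MYC-WT against 664 and 733 CPM in MYC-deficient libraries. It was the only one of the 45 genes with both MYC-deficient libraries below both MYC-WT libraries, and it did not pass (log2 fold change -0.27, standard error 0.145, adjusted p = 0.248). With the replicate block it passed on p and lay under the fold threshold (adjusted p = 0.0349). Its partner in the ring, Atp6v1a, lay the other way, at 801.5 and 719 against 990 and 991 CPM (log2 fold change 0.41, adjusted p = 0.0747). Atp6v1h, the H subunit that regulates the pump, had a log2 fold change of -0.02, which turned above 0 with RLE scaling. Of the accessory proteins, Atp6ap1 was at 514 and 529 CPM in MYC-WT against 679 and 772 CPM in MYC-deficient libraries (log2 fold change 0.51, standard error 0.13, adjusted p = 0.0536), and Atp6ap2, the prorenin receptor, had a log2 fold change of 0.27 with no overlap.

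The isoforms of the V-ATPase that are not among the 45 genes did not pass. Tcirg1 encodes a3, the a subunit of the osteoclast plasma membrane, and was at 835 and 938.5 CPM in MYC-WT against 959.5 and 954 CPM in MYC-deficient libraries (log2 fold change 0.14, adjusted p = 0.513 by edgeR's quasi-likelihood test). Atp6v0d2, the d2 isoform that is abundant in osteoclasts, was at 154 and 241 CPM in MYC-WT against 99.1 and 142 CPM in MYC-deficient libraries. Its MYC-deficient values lay below both MYC-WT values, and the difference did not pass (log2 fold change -0.68, standard error 0.29, adjusted p = 0.153). Without MYC-deficient replicate 2 its log2 fold change was -0.99. It did pass with no filter (adjusted p = 4.08e-05 by the quasi-likelihood test). That setting also lowered adjusted p for the 11 called genes among the 45. For them it ran from 7.18e-13 to 0.000534 with no filter, against 0.0113 to 0.0334 in the main test. Atp6v0a2 and Atp6v1g2 had log2 fold changes of 0.08 and 0.11 (adjusted p = 0.635 and 0.836). Atp6v0e2, Atp6v1b1 and Atp6v1c2 fell under the filter, and Atp6v0a4, Atp6v1e2 and Atp6v1g3 were not analysed here. Of 7 V-ATPase assembly factors 0 were called in either direction, against 6.06% of all genes called higher and 9.91% lower. At an unadjusted p under 0.05 by the quasi-likelihood test, 2 were higher and 1 lower (16.0% and 20.4% over all genes).

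Within the a subunit, on CPM per kilobase of merged exon, Tcirg1 made up 87.7% and 89.7% of the 3 isoforms in MYC-WT against 84.6% and 83.0% in MYC-deficient libraries. The share of Atp6v0a1 was 6.80% and 5.08% against 10.6% and 12.1%, and that of Atp6v0a2 5.53% and 5.23% against 4.80% and 4.93%. Within the d subunit, Atp6v0d1 held 58.1% and 45.9% in MYC-WT against 73.6% and 67.5% in MYC-deficient libraries, and Atp6v0d2 the rest. Shares of these isoforms did not overlap between genotypes. With 2 libraries against 2, no exact permutation test could reach p < 0.05, and none was run on them.

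**Figure D3:**
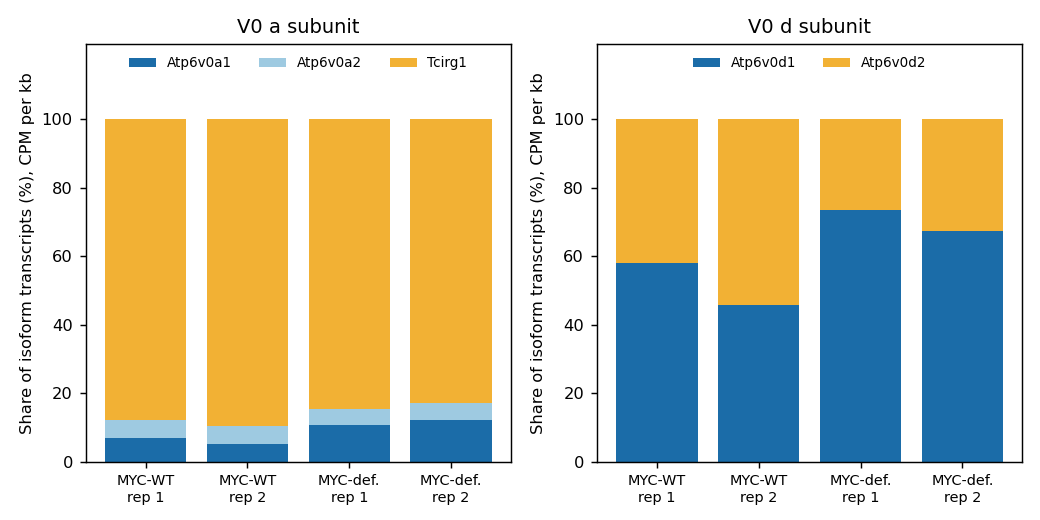
Share (%) of each isoform in the a subunit (Atp6v0a1, Atp6v0a2, Tcirg1) and the d subunit (Atp6v0d1, Atp6v0d2) of the V0 sector, from CPM per kilobase of merged exon, 1 bar per library. Tcirg1 held at least 83.0% of the a subunit in every library, and Atp6v0d1 held 73.6% and 67.5% of the d subunit in the MYC-deficient libraries.

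Of the 14 glycan hydrolases, 4 rose (6.06% over all genes tested) and 10 did not pass, and the median log2 fold change was 0.45. Both MYC-deficient libraries were above both MYC-WT libraries for 12 of them, against 27.5% of all genes tested. Hexa encodes the alpha subunit of beta-hexosaminidase, which degrades GM2 ganglioside and is deficient in Tay-Sachs disease. It was at 434 and 363 CPM in MYC-WT against 781 and 717 CPM in MYC-deficient libraries (log2 fold change 0.94, standard error 0.13, adjusted p = 0.0146 by edgeR's quasi-likelihood test). Man2b1, the lysosomal alpha-mannosidase, was at 466.5 and 465.6 CPM against 749.2 and 765.5 CPM, with replicates closer to each other than for Hexa (log2 fold change 0.73, standard error 0.11, adjusted p = 0.0171). Sgsh and Naglu act on heparan sulfate, as a sulfamidase and an N-acetylglucosaminidase. Sgsh was at 31.35 and 29.1 CPM in MYC-WT against 47.5 and 46.9 CPM in MYC-deficient libraries, the lowest level of the 45 genes before correction for length (log2 fold change 0.67, standard error 0.10, adjusted p = 0.0164). Naglu was at 75.1 and 79.0 against 119 and 113 CPM (log2 fold change 0.62, standard error 0.10, adjusted p = 0.0184). All 4 lost their call without MYC-WT replicate 1 (adjusted p from 0.0529 to 0.108) and without MYC-WT replicate 2 (adjusted p from 0.0934 to 0.129).

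Gla, Idua and Ids passed on p alone, with log2 fold changes of 0.54, 0.51 and 0.44 that lay under the fold threshold. Gla, the alpha-galactosidase of Fabry disease, was at 124 and 117 CPM in MYC-WT against 183 and 161 CPM in MYC-deficient libraries (standard error 0.11, adjusted p = 0.0298 by edgeR's quasi-likelihood test). Idua and Ids, which remove iduronic acid and its sulfate from glycosaminoglycans, had adjusted p = 0.0415 and 0.046. Arsb, the sulfatase of dermatan sulfate, had the largest standard error of the 45 genes, at 94.1 and 153 CPM in MYC-WT against 103 and 136 CPM in MYC-deficient libraries. Its groups overlapped fully (log2 fold change -0.02, standard error 0.28, adjusted p = 0.961), and its sign turned with RLE scaling. Glb1, the lysosomal beta-galactosidase, also overlapped, at 106 and 95.7 against 107 and 90.6 CPM, and its sign turned with scaling to total counts. The remaining 5, Gaa, Gusb, Manba, Neu1 and Fuca1, had log2 fold changes from 0.13 to 0.47 with no overlap and did not pass. Exons of Sgsh overlap those of Card14 on the opposite strand over 21.6% of their length, Hexa those of Tmem202 over 12.8%, and Idua those of Dgkq over 2.95%. Arsb exons overlap those of Gm47210 on the opposite strand over 7.67% (mean counts 3759 and 0.5). The sources used here do not give the strand setting of the counting, so reads of these pairs cannot be told apart. Glb1 shares 5.49% of its exon bases with Tmppe on the same strand (mean counts 3158 and 734). Mean counts were 5.75 for Card14, 38 for Tmem202 and 739 for Dgkq, against 1220, 18180 and 1777 for Sgsh, Hexa and Idua.

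Of the 10 lipid hydrolases and lipid transfer proteins, 4 rose (6.06% over all genes tested) and 6 did not pass. Their median log2 fold change was 0.57. Lipa, the acid lipase that frees cholesterol and fatty acids from lipoprotein esters, was at 1690 and 1376 CPM in MYC-WT against 3203 and 3582 CPM in MYC-deficient libraries. This 2.26-fold difference was the highest of the 45 genes, close to that of Atp6v0a1 (2.24-fold), and without MYC-deficient replicate 1 the order of the pair turned (log2 fold changes 1.295 for Lipa and 1.304 for Atp6v0a1). Lipa passed the test (log2 fold change 1.18, standard error 0.17, adjusted p = 0.0147 by edgeR's quasi-likelihood test). Npc1, the membrane protein that carries cholesterol out of lysosomes, was at 223 and 211 against 346 and 373 CPM (log2 fold change 0.76, standard error 0.11, adjusted p = 0.0155). Galc, the galactosylceramidase of Krabbe disease, was at 72.1 and 53.7 against 115 and 113 CPM (log2 fold change 0.89, standard error 0.15, adjusted p = 0.0203). Gm2a, the activator protein that lifts GM2 ganglioside for the hexosaminidase, was at 199 and 230 against 315 and 364 CPM (log2 fold change 0.69, standard error 0.15, adjusted p = 0.0334). All 4 lost their call without MYC-WT replicate 2 (adjusted p from 0.0868 to 0.128), and only Galc kept it without MYC-WT replicate 1 (adjusted p = 0.0316). Gm2a also lost its call without MYC-deficient replicate 2 (adjusted p = 0.0701).

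Npc2, the soluble partner that hands cholesterol to Npc1, did not pass. It was at 1298 and 1549 CPM in MYC-WT against 1461 and 1334 CPM in MYC-deficient libraries, and the genotypes overlapped (log2 fold change -0.00076, standard error 0.16, adjusted p = 0.998 by edgeR's quasi-likelihood test). Its sign turned with RLE scaling. The difference between the changes of Npc1 and Npc2 was not tested. Psap, the precursor of the saposins that present sphingolipids to their hydrolases, was the most abundant of the 45 genes, at 5069 and 4197 CPM in MYC-WT against 7661 and 6753 CPM in MYC-deficient libraries. It missed the threshold on p (log2 fold change 0.67, standard error 0.18, adjusted p = 0.055). DESeq2 called it (adjusted p = 8.13e-05), as did the likelihood ratio test of edgeR (adjusted p = 0.0026) and the main test among the authors' filtered genes (adjusted p = 0.0471). Asah1, the acid ceramidase, was at 426 and 366 against 527 and 549 CPM (log2 fold change 0.47, standard error 0.12, adjusted p = 0.0546). Smpd1, the acid sphingomyelinase, and Ppt1, a thioesterase, lay above without passing, at log2 fold changes of 0.38 and 0.48. Arsa, the sulfatase of sulfatide, overlapped at 57.9 and 55.4 against 60.4 and 57.5 CPM. Exons of Arsa overlap those of C230037L18Rik, on the opposite strand, over 18.8% of their length (mean counts 1822 and 18.5). Exons of Ppt1 overlap those of Cap1, a far more abundant gene on the opposite strand, over 3.51% of their length (mean counts 4176 and 32360), and exons of Npc1 overlap those of Rmc1 over 4.52% (mean counts 9056 and 1836).

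Of the 5 lysosomal membrane proteins, 2 rose (6.06% over all genes tested), with a median log2 fold change of 0.55. All 5 had both MYC-deficient libraries above both MYC-WT libraries, against 27.5% of all genes tested. Lamp2, a main glycoprotein of the lysosomal membrane, was at 504 and 435 CPM in MYC-WT against 763 and 705 CPM in MYC-deficient libraries (log2 fold change 0.67, standard error 0.13, adjusted p = 0.026 by edgeR's quasi-likelihood test). Cd68, a LAMP family glycoprotein of macrophages that is also in the macrophage marker list, was at 1035 and 960 against 1506 and 1549 CPM (log2 fold change 0.64, standard error 0.13, adjusted p = 0.0285). Both lost their call without MYC-WT replicate 1 (adjusted p from 0.0955 to 0.151) and without MYC-WT replicate 2 (adjusted p from 0.188 to 0.223), and Cd68 also without MYC-deficient replicate 2 (adjusted p = 0.0666). Scarb2, the receptor that carries glucocerebrosidase to lysosomes, was at 150 and 130 against 216 and 187 CPM (log2 fold change 0.55, standard error 0.12, adjusted p = 0.0363). Mcoln1, a lysosomal calcium channel, was at 56.7 and 50.0 against 77.7 and 69.9 CPM (log2 fold change 0.50, adjusted p = 0.0398). Both passed on p and lay under the fold threshold. Lamp1, the counterpart of Lamp2, was at 1413 and 1135 against 1889 and 1580 CPM (log2 fold change 0.47, standard error 0.17, adjusted p = 0.11). Exons of Lamp1 overlap those of Grtp1 on the opposite strand over 9.31% of their length (mean counts 47800 and 62.75). Tpp1, the only peptidase of the 45, was at 385 and 323 against 455.5 and 416 CPM and did not pass (log2 fold change 0.33, standard error 0.13, adjusted p = 0.135).

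**Figure D4:**
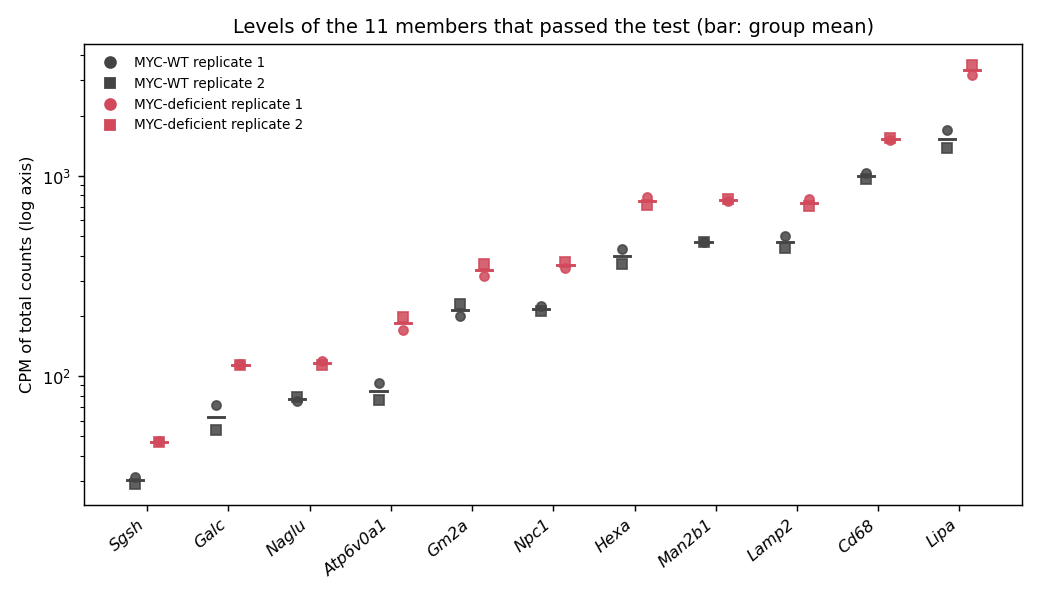
Level (CPM, log axis) of the 11 called genes in each of the 4 libraries, 1 point per library, ordered by mean level in MYC-WT. For every one of the 11 both MYC-deficient points lie above both MYC-WT points, from Sgsh, at 29.1 to 31.35 against 46.9 to 47.5 CPM, to Lipa, at 1376 to 1690 against 3203 to 3582 CPM.

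Levels of different genes were compared on CPM per kilobase of merged exon. On that scale Psap was highest, at a mean of 1688 in MYC-WT and 2626 in MYC-deficient libraries, followed by Cd68 (794 and 1215) and Lamp1 (476 and 648). In MYC-WT cells Npc2, Lipa and Hexa came next, at 262, 226 and 200, and neighbours in this order overlapped between libraries. In MYC-deficient cells Lipa, at 500, stood above Hexa (375) and Npc2 (257). Galc was lowest in both genotypes, at 4.23 and 7.68. This order depends on the merged exon length, which was 14879 bases for Galc. Before correction for length Galc was at a mean of 62.9 CPM in MYC-WT, above Sgsh at 30.2 CPM.

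Promoters of the 45 genes were read for CACGTG, the E-box core that MYC with MAX, and also the MiT/TFE factors such as TFEB, are known to bind. RefSeq promoters (GRCm38.p6) cover 300 bases a gene here, from 250 before to 50 after its start, and 39 of the 45 genes had an entry (not Atp6v1b2, Atp6v1c1, Atp6v1g1, Atp6v1h, Asah1 and Npc1). CACGTG reads the same on both strands and was in 12 of the 39 (30.8%), in 8.09% of the 27025 genes with a promoter in the table and in 11.8% of the 9845 of them that were tested. GTCACGTG, counted on both strands, was in 9 of the 39 (23.1%) against 2.55% of all and 4.82% of tested promoters. The palindrome TCACGTGA was in 5 of the 39 (12.8%) against 1.12% and 2.24%. Both longer motifs hold CACGTG, so the counts overlap. Among the genes that rose, 2 of 10 with a promoter held CACGTG, Sgsh and Naglu, and among the others 10 of 29. The median log2 fold change was 0.44 with CACGTG (n = 12) and 0.47 without (n = 27). A match is only these letters in this window. Windows of 30 bases are shown for the called genes Sgsh and Naglu, for Atp6v0d1, Gla and Mcoln1, which passed on p alone, and for Glb1, Arsa and Atp6v0b, whose genotypes overlapped, because the same core is in promoters of genes that rose and of genes that did not. Each is 5′ to 3′ on the strand of the gene, with CACGTG, or TCACGTGA where the core lies in it, in capitals.
Sgsh, chr11:119355522-119355551, minus strand: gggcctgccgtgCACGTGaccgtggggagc
Naglu, chr11:101070009-101070038, plus strand: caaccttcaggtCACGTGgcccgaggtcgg
Atp6v0d1, chr8:105566050-105566079, minus strand: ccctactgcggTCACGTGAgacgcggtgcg
Gla, chrX:134601182-134601211, minus strand: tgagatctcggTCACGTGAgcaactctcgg
Mcoln1, chr8:3500462-3500491, plus strand: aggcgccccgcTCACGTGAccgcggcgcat
Glb1, chr9:114401018-114401047, plus strand: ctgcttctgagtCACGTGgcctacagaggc
Arsa, chr15:89477423-89477452, minus strand: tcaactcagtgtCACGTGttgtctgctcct
Atp6v0b, chr4:117887348-117887377, minus strand: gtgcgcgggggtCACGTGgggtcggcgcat

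Atp6v0a1 and Naglu, both called, are neighbours on chromosome 11 with 6.30 kb between them, and Sgsh lies 58.0 kb from Gaa on the same chromosome, which was not called. Atp6v1c1 and Arsa share chromosome 15 with Myc, at distances of 23.3 and 27.5 Mb, and neither was called.

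Genes of the pathway outside the 45 were read from lists by function. Over all genes 6.06% were called higher, and counts in these lists are read against that share. Of 18 other lysosomal hydrolases, 2 rose and 0 fell, with a median log2 fold change of 0.40. At an unadjusted p under 0.05 by the quasi-likelihood test, 10 of the 18 were higher and 0 lower, against 16.0% and 20.4% of all genes. Galns, a sulfatase of keratan sulfate, rose by 0.66 on the log2 scale (adjusted p = 0.02 by edgeR's quasi-likelihood test). Plbd1, a phospholipase B-like protein, was low in all libraries, at 1.63 and 0.892 against 10.0 and 6.43 CPM (log2 fold change 2.73, adjusted p = 0.0139). Of 16 other lysosomal membrane proteins, Gpr137b rose (log2 fold change 0.61, adjusted p = 0.0435), and of 9 genes of mannose 6-phosphate sorting, which delivers hydrolases to lysosomes, Gnptg rose (log2 fold change 0.59, adjusted p = 0.0407). The medians of these last lists were 0.36 and 0.07, and 9 of the 16 and 2 of the 9 were higher at that unadjusted p, with 0 lower. All 4 genes lost their call without MYC-WT replicate 2 (adjusted p from 0.0656 for Plbd1 to 0.153 for Gpr137b), and all but Plbd1 without MYC-WT replicate 1 (adjusted p from 0.0953 for Galns to 0.189 for Gpr137b). Without MYC-deficient replicate 2, Gpr137b and Gnptg also lost theirs (adjusted p = 0.116 and 0.108), Galns fell under the fold threshold, and Gnptg did so with total counts alone and with no filter.

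TFEB and its relatives are transcription factors known to drive lysosomal genes. Of 17 genes of this family and its lysosomal regulators, 2 rose (6.06% over all genes), Fnip1 and Fnip2, the folliculin partners (log2 fold change 0.72 and 0.62, adjusted p = 0.0481 and 0.0174 by edgeR's quasi-likelihood test), and 0 fell. Neither kept its call without MYC-WT replicate 1 (adjusted p = 0.0557 and 0.0856) or without MYC-WT replicate 2 (adjusted p = 0.19 and 0.129), and Fnip1 also lost it without MYC-deficient replicate 1 (adjusted p = 0.0779) and with total counts alone (adjusted p = 0.0597). At an unadjusted p under 0.05 by the quasi-likelihood test, 8 of the 17 were higher and 0 lower, against 16.0% and 20.4% of all genes. Tfeb was at 32.7 and 38.5 CPM in MYC-WT against 48.1 and 68.1 CPM in MYC-deficient libraries. The genotypes did not overlap, and the difference did not pass (log2 fold change 0.73, adjusted p = 0.0652). It passed with DESeq2 (adjusted p = 0.0109), the likelihood ratio test (adjusted p = 0.0141) and no filter (adjusted p = 6.98e-05). The setting with no filter also lowered adjusted p for the 11 called genes among the 45. Tfe3 and Tfec did not pass (log2 fold change 0.36 and 0.24, adjusted p = 0.0551 and 0.175), and Mitf was at a log2 fold change of 0.00 (adjusted p = 0.995), with a sign that turned with scaling to total counts.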

How the data were processed

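RNA-seq counts per gene were deposited by the authors for 4 libraries. STAR 2.7.3a, edgeR, fastp, bcl2fastq 1.8.4 and the mm10 build are listed in the submitters' processing notes. The sources used here give no counting tool, strand setting or annotation release. The authors also deposited log2 CPM of 11109 genes that passed their own filter, used here in limma-trend only. The 45 genes, the other lists and the rule for named genes (all called genes, and the uncalled gene with the smallest p in each role and direction) were chosen with earlier results of these data known.

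Counts of 28443 genes were fitted with edgeR 4.0.16 (R 4.3.3). filterByExpr (min.count 10, min.total.count 15) left 13436 genes. After TMM scaling, genotypes were compared by the quasi-likelihood test on 2 residual degrees of freedom, with Benjamini-Hochberg adjustment over all genes tested. Calls needed a fold above 1.5 at an adjusted p below 0.05. Standard errors are the log2 fold change over the square root of F. Levels are CPM of total counts. The scripts were tested on simulated data. Exon lengths and overlaps came from GENCODE M21, in which 44 of the 45 genes have identical coordinates. Alternatives used DESeq2 1.42.0, limma 3.58.1, other scaling, filters, thresholds, a replicate block and leaving out each library. Of the list of other lysosomal hydrolases, 2 genes are not reported here and were left out of its counts.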

Additional observations from a re-analysis of the deposited data

How the results depend on the processing

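The 11 calls stayed at 11 with RLE scaling and with total counts alone, and were 12 with no filter, the authors' filtered genes, DESeq2, edgeR's likelihood ratio test, limma-trend and the replicate block. No fold threshold gave 17 calls (2 V-ATPase, 7 glycan and 4 membrane genes), a fold over 2 gave 2 (0 glycan, 1 lipid and 0 membrane genes), and glmTreat gave 0 (0 V-ATPase, 0 glycan, 0 lipid and 0 membrane genes). Leaving out each library gave 0 to 13 calls, with 0 to 2 V-ATPase, 0 to 5 glycan, 0 to 4 lipid and 0 to 2 membrane genes, and a median log2 fold change from 0.38 to 0.46. Leaving out a MYC-WT library leaves that genotype with 1 library, which is then assumed to vary like the MYC-deficient pair. Replicate numbers do not state a pairing: over all genes the difference of replicate 1 from replicate 2 correlated between genotypes at r = 0.499 (0.654 over the 45 genes), and the replicate block gave 12 calls, with Psap gained (adjusted p = 0.00419 by edgeR's quasi-likelihood test). Outside the 45 genes, Tfeb and Atp6v0d2 passed with the block (adjusted p = 0.00285 and 0.00171).

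Sign changes were seen for 9 genes, none of them called, with main log2 fold changes from -0.02 (Arsb) to 0.20 (Atp6v1f). The largest value with a turned sign was 0.399, for Arsb without MYC-WT replicate 2. With RLE scaling, DESeq2 and limma-trend, Atp6v1h was at 0.00873, 0.00863 and 0.0142, Arsb at 0.00746, 0.0075 and 0.0458, and Npc2 at 0.0276, 0.0276 and 0.0427. With the replicate block Arsb was at 0.00817, Npc2 at 0.00569 and Mitf at -9.58e-05. With total counts alone and with no filter, Glb1 was at -0.0242 and -0.00619 and Mitf at -0.026 and -0.00912, and Mitf was at -0.00143 among the authors' filtered genes. Leaving out each library gave ranges of -0.35 to 0.399 for Arsb, -0.00356 to 0.127 for Atp6v0c, -0.0899 to 0.461 for Atp6v1f, -0.142 to 0.241 for Atp6v1g1, -0.218 to 0.378 for Atp6v1g2, -0.0878 to 0.0656 for Atp6v1h, -0.0812 to 0.103 for Glb1, -0.039 to 0.0622 for Mitf and -0.143 to 0.157 for Npc2. The causes were not tested. The median standard error was 0.12 on the log2 scale for the 45 genes, against 0.17 over all genes tested.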
